A study of Mus musculus with 12 samples.

Results

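The imprinted growth-related genes described here are 10 mouse genes, Igf2, H19, Dlk1, Meg3, Rian, Mirg, Peg3, Peg10, Plagl1 and Grb10, of 41388 genes counted. They were taken by symbol, and the set was chosen by the counts of Igf2, which were higher in neurons given a huntingtin fragment with a long glutamine tract. The level of Igf2 in that group is therefore a description here and carries no test.

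RNA was measured in 12 libraries of primary cortical neurons cultured from Swiss Webster mouse embryos of embryonic day 16, after removal of ribosomal RNA. All 3 groups of 4 libraries were infected with lentivirus at day 5 in vitro and harvested at day 10. Control vector libraries received a vector without huntingtin, labelled as an empty vector in 3 of them and as a control vector in the second. Htt-25Q libraries received exon 1 of wild-type huntingtin with 25 glutamines, and Htt-72Q libraries received mutant exon 1 with 72 glutamines. The constructs hold exon 1 alone, and neither their promoter nor the share of infected cells is stated in the labels. The labels do not say that the libraries of a group came from separate animals, so p-values measure only the spread between these libraries. Each description opens with a number (22, 24, 26, 27 or 27_1), called the preparation here, whose meaning the labels do not state. Preparations 22, 24 and 27_1 hold 1 library of each group, 26 lacks Htt-25Q, and 27 holds Htt-25Q 4 alone.

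An imprinted gene is expressed mainly from the copy inherited from 1 parent, which is marked by DNA methylation set in the germ line. Many imprinted genes act on fetal growth: as a rule those active on the paternal copy promote it and those active on the maternal copy restrain it. Igf2 is a paternally expressed growth factor that signals through the IGF1 receptor, and several members lie in clusters under a shared control region, Igf2 with H19 and Dlk1 with Meg3, Rian and Mirg. Gene counts do not separate the parental copies, so the values below are sums over both.

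Total counts ran from 12.4 M to 27.5 M per library. Neuron markers summed to 6114 to 7375 CPM in the control vector group, to 5727 to 6644 CPM with Htt-25Q and to 4135 to 4333 CPM with Htt-72Q, and astrocyte markers to 2773 to 3269, 2492 to 3179 and 2563 to 3008. CPM here means counts scaled to a common library total, with TMM factors that adjust for RNA composition. In bulk RNA, fewer cells of a type and less RNA per cell cannot be told apart. The libraries also fell into 2 classes of 6 by Gapdh, at 9.16 to 20.3 CPM of the library total and at 35.4 to 50.2 CPM, which no label names. The high class holds control vector 2 and 4, Htt-25Q 3 and Htt-72Q 1, 2 and 4.

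The members differed widely in level. Per kilobase of counted length, on the deposited RPKM scale, Peg3 had the highest mean over the 12 libraries at 28.7. Grb10 (8.31) and Mirg (8.25) followed at levels that their ranges over libraries do not separate, then Plagl1 (2.96), Peg10 (2.50) and Meg3 (0.850). Igf2 (0.136) and H19 (0.121) were near the floor of detection, Rian had 5 reads in all and Dlk1 had none. A filter on low counts, with a level of 0.524 CPM, left 7 of the 10 members in the test across 14707 genes and removed H19, Rian and Dlk1. Igf2 reached that level in 5 libraries, the 4 of Htt-72Q and Htt-25Q 3, so it was tested because of the group in which it was high.

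Igf2 lies at chr7:142650766-142666816 on the minus strand of GRCm38. It had 3, 2, 4 and 3 reads in control vector 1 to 4, and 2, 2, 15 and 6 in Htt-25Q. In Htt-72Q it had 27, 35, 15 and 40 reads. As levels these were 0.132, 0.120, 0.202 and 0.241 CPM in the control vector group, 0.0866, 0.0931, 0.561 and 0.342 CPM with Htt-25Q, and 1.77, 2.39, 1.20 and 1.93 CPM with Htt-72Q. The lowest Htt-72Q library, the third, lay above the highest of the other 8, Htt-25Q 3. The means were 0.174 ± 0.0577 CPM (SD, n = 4), 0.271 ± 0.227 CPM and 1.82 ± 0.493 CPM. The fitted log2 fold changes of Htt-72Q, given without a test, were 3.39 ± 0.55 (SE) against control vector and 2.70 ± 0.50 against Htt-25Q. These values rest on 117 reads in Htt-72Q, 25 in Htt-25Q and 12 in control vector.

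Htt-25Q against control vector is the comparison that did not choose the members. Igf2 had a log2 fold change of 0.68 ± 0.62 there (edgeR adjusted p = 1), and without Htt-25Q 3 it was -0.03. In that comparison 0 of 14707 genes were called at an adjusted p under 0.05 by edgeR (0%), with 129 at an unadjusted p under 0.05, and DESeq2 and limma voom also called 0. The 7 tested members had log2 fold changes of -0.0032 (Peg10) to 0.68 (Igf2), and the library ranges of the 2 groups overlapped for each of them, against 0.993% of all genes tested whose ranges did not overlap (0.673% higher, 0.32% lower).

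**Figure D1:**
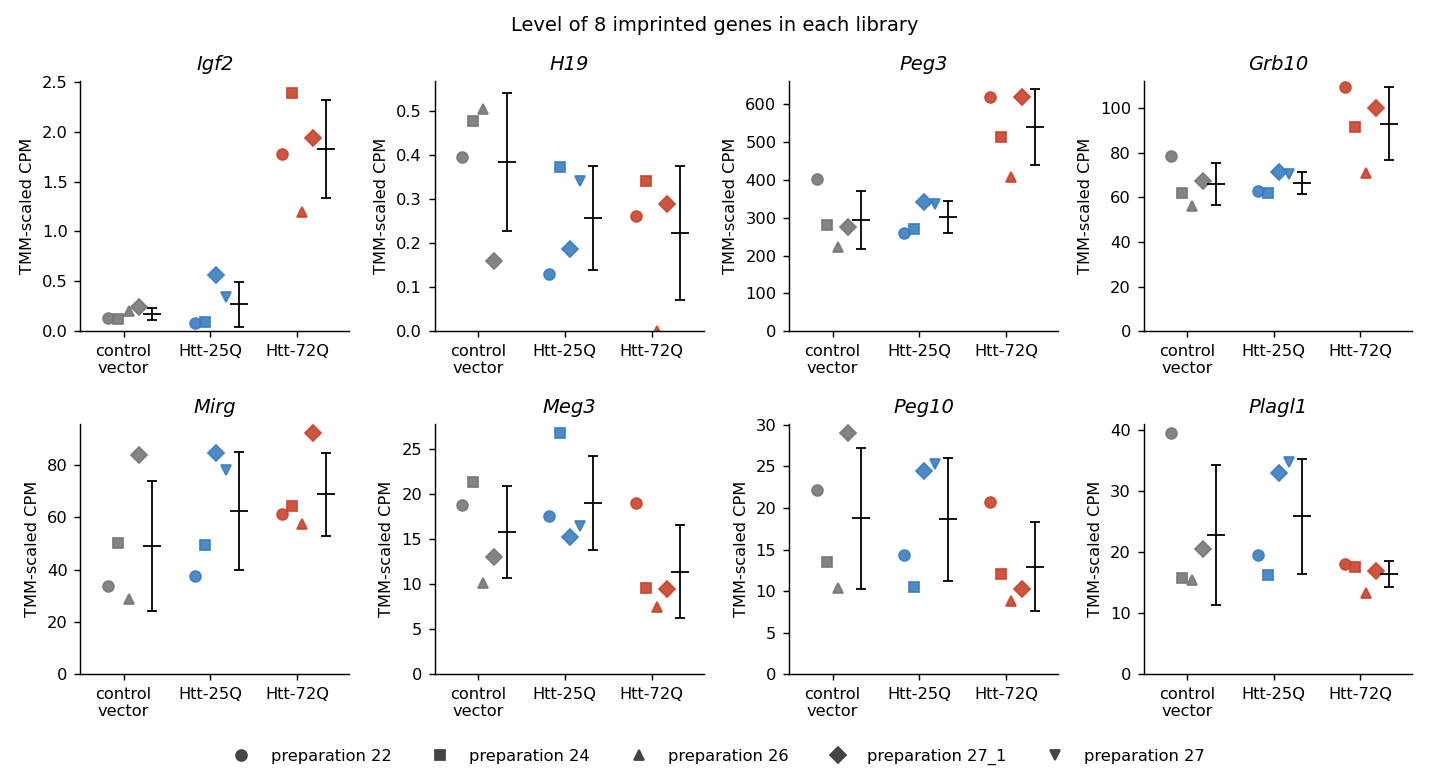
Level of 8 members in each library, in TMM-scaled CPM (linear axes from 0), by group, with the mean ± SD of 4 libraries beside the points and the preparation as the symbol. Igf2 and Peg3 are higher in each Htt-72Q library than in the other 8, at 1.20 to 2.39 and 409 to 620 CPM, while the points of H19, Mirg, Meg3, Peg10 and Plagl1 overlap between groups.

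RefSeq lists 4 start sites for Igf2. The 250 bases before the one richest in CG pairs are shown, since imprints are marked by methylation of CG pairs. They were picked by the number of CG pairs alone, and an imprint mark there was not tested. This stretch is chr7:142658805-142659054 (GRCm38.p6, minus strand) and holds 22 CG pairs, in capitals.
Igf2 upstream: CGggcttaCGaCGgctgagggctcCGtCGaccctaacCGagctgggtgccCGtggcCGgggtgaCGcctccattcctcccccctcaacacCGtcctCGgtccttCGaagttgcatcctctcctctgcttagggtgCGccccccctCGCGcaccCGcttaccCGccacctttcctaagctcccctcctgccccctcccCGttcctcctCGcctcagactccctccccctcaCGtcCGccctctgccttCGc
The 4 windows around Igf2 starts held 2, 14, 24 and 7 CG pairs in 300 bases, against a median of 7 over 32851 such windows in the genome. Methylation was not measured here, and gene counts do not say which start was used.

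Neighbours of Igf2 were read too. Igf2os, the antisense RNA whose exons overlap those of Igf2 on the other strand, had 8 reads in the control vector group, 10 with Htt-25Q and 31 with Htt-72Q. The labels do not say whether the counting used strand, so reads from Igf2 and Igf2os cannot be told apart where they overlap. Ins2, the insulin gene next to Igf2, had 1, 1 and 2 reads and the muscle enhancer RNA Nctc1 had 1, 5 and 3. H19 is the maternally expressed non-coding RNA that shares enhancers with Igf2, and lies at chr7:142575529-142578143 on the minus strand. It had 9, 8, 10 and 2 reads in the control vector group, 3, 8, 5 and 6 with Htt-25Q, and 4, 5, 0 and 6 with Htt-72Q. Its means were 0.385 ± 0.157, 0.258 ± 0.118 and 0.224 ± 0.153 CPM (SD, n = 4), and the ranges overlapped between all 3 groups. In a fit without the filter, H19 had a log2 fold change of -0.79 ± 0.70 in Htt-72Q against control vector (edgeR adjusted p = 0.539), opposite in sign to that of Igf2. H19 rests on 29, 22 and 15 reads in the 3 groups. The H19 transcript carries miR-675, whose hairpin had 0 reads, and the Igf2 intron carries miR-483, whose hairpin also had 0. The miR-675 hairpin overlaps an H19 exon, and how reads over shared exons were counted is not known here.

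In brain, Igf2 is known as a product of meninges, vessels and choroid plexus, so markers of these cells are given beside it. The 18 fibroblast, meningeal and mural markers summed to 50.9 to 129 CPM in the control vector group, to 52.6 to 74.6 CPM with Htt-25Q and to 38.0 to 44.9 CPM with Htt-72Q. Of the 11 tested, 3 were higher in Htt-72Q than in control vector (Aldh1a2, Cped1 and Tagln) and 4 were lower (Postn, Col6a3, Fn1 and Rgs5). Among all genes tested, 9.44% were called higher and 13.7% lower. Aldh1a2 and Cped1 reached the filter level of 0.524 CPM in 4 Htt-72Q libraries and in 0 of the others. Their place in the test came through Htt-72Q alone, so their calls are a description and are not read against these shares. The 8 choroid plexus markers summed to 1.97 to 3.26, 1.71 to 3.58 and 1.36 to 4.78 CPM, with medians of 2.34, 2.50 and 3.54 CPM. Of the 3 tested, Prlr, the prolactin receptor, was called higher against control vector, at 1.77 ± 0.774 CPM against 0.203 ± 0.181 (SD, n = 4). It reached the filter level in 0 control vector, 2 Htt-25Q and 4 Htt-72Q libraries. Prlr was thus tested because of Htt-72Q, and its call is a description. Folr1 (log2 fold change -1.23 ± 0.51, SE) and Kl (-0.98 ± 0.76) were lower in Htt-72Q and did not pass. Ttr, the defining transcript of that tissue, had 14, 6 and 4 reads in the 3 groups. Of the other untested ones, Clic6 had 2, 1 and 19 reads and Kcnj13 had 6, 2 and 12. Otx2 had 2, 0 and 4 reads and Kcne2 had 6, 10 and 6. The 8 endothelial markers summed to 1.87 to 3.17, 1.77 to 3.72 and 1.69 to 4.54 CPM. The 8 muscle markers summed to 6.61 to 11.8, 6.80 to 8.79 and 4.21 to 6.04 CPM. Neural progenitor and cycling markers summed to 308 to 334, 290 to 375 and 361 to 426 CPM. The muscle marker Myf5 had 0 reads in control vector and in Htt-25Q, as did Myog and the choroid plexus marker Otx2 in Htt-25Q, and the other markers of these lists had reads in each group. The part of any of these cells in the level of Igf2 was not tested.

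Among the 6 members tested other than Igf2, which is given no test, Peg3 and Grb10 were called. Both rose in Htt-72Q against each of the other groups, where 23.2% of all genes tested were called against control vector (9.44% higher, 13.7% lower) and 22.5% against Htt-25Q (9.07% higher, 13.4% lower). The members were chosen with results of these comparisons known, so their count is not read against these shares.

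Peg3 encodes a paternally expressed zinc finger protein that is abundant in neurons and is known for its roles in growth and maternal behaviour. It lies at chr7:6703892-6730421 on the minus strand. Its level was 403, 280, 222 and 275 CPM in control vector 1 to 4, and 259, 270, 342 and 335 CPM in Htt-25Q. In Htt-72Q it was 618, 512, 409 and 620 CPM. Each Htt-72Q library lay above each of the other 8, although Htt-72Q 3 at 409 CPM was close to control vector 1 at 403. The means were 295 ± 76.5, 301 ± 43.1 and 540 ± 101 CPM (SD, n = 4). Peg3 rose by 0.87 ± 0.18 (log2, SE) against control vector (edgeR adjusted p = 0.0034) and by 0.84 ± 0.18 against Htt-25Q (adjusted p = 0.0044). Of all genes tested, 10.1% and 11.6% likewise had a higher range in Htt-72Q with no overlap in these comparisons. Its call held under all alternatives, with adjusted p of 0.000243 to 0.0154 against control vector and 0.000357 to 0.0168 against Htt-25Q. Within preparations the log2 ratio was positive in 4 of 4 against control vector (0.62 to 1.17) and in 3 of 3 against Htt-25Q (0.86 to 1.26). Htt-25Q against control vector gave 0.031 ± 0.18 (adjusted p = 1).

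The Peg3 promoter is shown because it was the 1 member window, of 13 windows for 8 members in RefSeq, that holds the letters GGGGCCCC, the core of the site known for PLAGL1, the protein of another member. The match lies 201 bases before the start, in chr7:6730420-6730669 (GRCm38.p6, minus strand), in capitals. It reads the same on both strands.
Peg3 upstream: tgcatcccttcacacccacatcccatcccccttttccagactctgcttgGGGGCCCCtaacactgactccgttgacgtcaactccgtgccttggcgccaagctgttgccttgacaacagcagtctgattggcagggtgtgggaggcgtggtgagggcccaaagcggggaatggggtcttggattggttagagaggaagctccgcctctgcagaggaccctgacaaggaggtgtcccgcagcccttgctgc
These letters occur in 354 of 32851 windows (1.08%), and Plagl1 itself was not called in any comparison. The letters AAGATGGC or, on the other strand, GCCATCTT, the core of the site of YY1, a factor known to bind the Peg3 locus, were in 0 member windows and in 2.75% of all windows. These are matches of letters in a window of 300 bases and say nothing of binding.

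The imprinted neighbours of Peg3 were not called. Usp29 had a log2 fold change of -0.14 ± 0.16 (adjusted p = 0.575) and Zim1 of -0.55 ± 0.23 (adjusted p = 0.1004) in Htt-72Q against control vector. Both were named as neighbours of a member, outside the rule for named genes.

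Grb10 encodes an adaptor that binds the insulin and IGF1 receptors and dampens their signal. It is maternally expressed in most tissues and paternally expressed in neurons, and lies at chr11:11930508-12038683 on the minus strand. Its level was 78.5, 61.9, 56.2 and 67.2 CPM in control vector, and 62.9, 61.8, 71.3 and 70.4 CPM in Htt-25Q. In Htt-72Q it was 109.5, 91.7, 70.9 and 100.1 CPM. Of these, 3 libraries lay above all 8 others, and Htt-72Q 3 lay inside the range of both other groups. The means were 66.0 ± 9.50, 66.6 ± 4.96 and 93.1 ± 16.5 CPM (SD, n = 4). Grb10 rose by 0.50 ± 0.14 (log2, SE) against control vector (edgeR adjusted p = 0.0218) and by 0.48 ± 0.14 against Htt-25Q (adjusted p = 0.0263). With preparation as a replicate block Grb10 rose by 0.49 ± 0.11 (edgeR adjusted p = 0.0052) and by 0.59 ± 0.12 (adjusted p = 0.0044). Htt-25Q 4 is alone in preparation 27 and adds nothing to the second value. In the fit without a block the call was close to the threshold. Against control vector it was lost in a fit of only the 2 groups (adjusted p = 0.0653) and without Htt-72Q 1 (0.0836), 2 (0.0570) or 4 (0.0520) or control vector 2 (0.0777) or 3 (0.0743). Against Htt-25Q it was lost with a term for the Gapdh classes (adjusted p = 0.0805) and without Htt-25Q 1 (0.0680), 2 (0.0734) or 4 (0.0573) or Htt-72Q 1 (0.0858), 2 (0.0584) or 4 (0.0501). Within preparations Grb10 was higher in 4 of 4 against control vector (log2 ratios of 0.34 to 0.57) and in 3 of 3 against Htt-25Q (0.49 to 0.80).

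The stretch before the CG-rich start of Grb10 is shown for contrast with that of Igf2. It lies at chr11:12037421-12037670 (GRCm38.p6, minus strand) and holds 40 CG pairs in 250 bases, in capitals.
Grb10 upstream: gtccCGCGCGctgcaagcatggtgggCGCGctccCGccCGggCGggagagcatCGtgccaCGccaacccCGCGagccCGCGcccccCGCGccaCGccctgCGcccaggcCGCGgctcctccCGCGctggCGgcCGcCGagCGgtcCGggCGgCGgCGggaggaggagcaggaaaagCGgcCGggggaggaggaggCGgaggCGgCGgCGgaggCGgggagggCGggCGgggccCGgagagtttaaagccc
With the 50 bases after the start it held 45 CG pairs, more than 98.1% of all windows. The second Grb10 start had 9, and methylation was not measured at these starts.

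Across the 12 libraries, Peg3 and Grb10 followed each other with a Pearson correlation of 0.97 of log2 levels, as a description over points that share groups and preparations. Peg10 and Plagl1 stood at 0.77. The correlation of Igf2 was 0.88 with Peg3 and 0.84 with Grb10, and that of Meg3 with Mirg was -0.21. The rise of Igf2 in Htt-72Q chose the set, and genes that also rise there will tend to correlate with it. Likeness to Igf2, here and in the next sentence, is therefore a description. The genes whose log2 level was most like that of Igf2, among 12378 with a mean of at least 1 CPM, were Ptprr (0.98), Ano3 (0.97), Dgkb (0.97), Tal1 (0.97) and Ehd4 (0.97). Those most like Meg3 were Clasrp (0.95), Amy1 (0.92), Cfap65 (0.91), Ints6l (0.90) and Rsph10b (0.89). For Peg3, added after its values were seen, they were Sez6l2 (0.98), Epb41l4b (0.97), Map3k2 (0.97), Grb10 (0.97) and Susd4 (0.97).

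**Figure D2:**
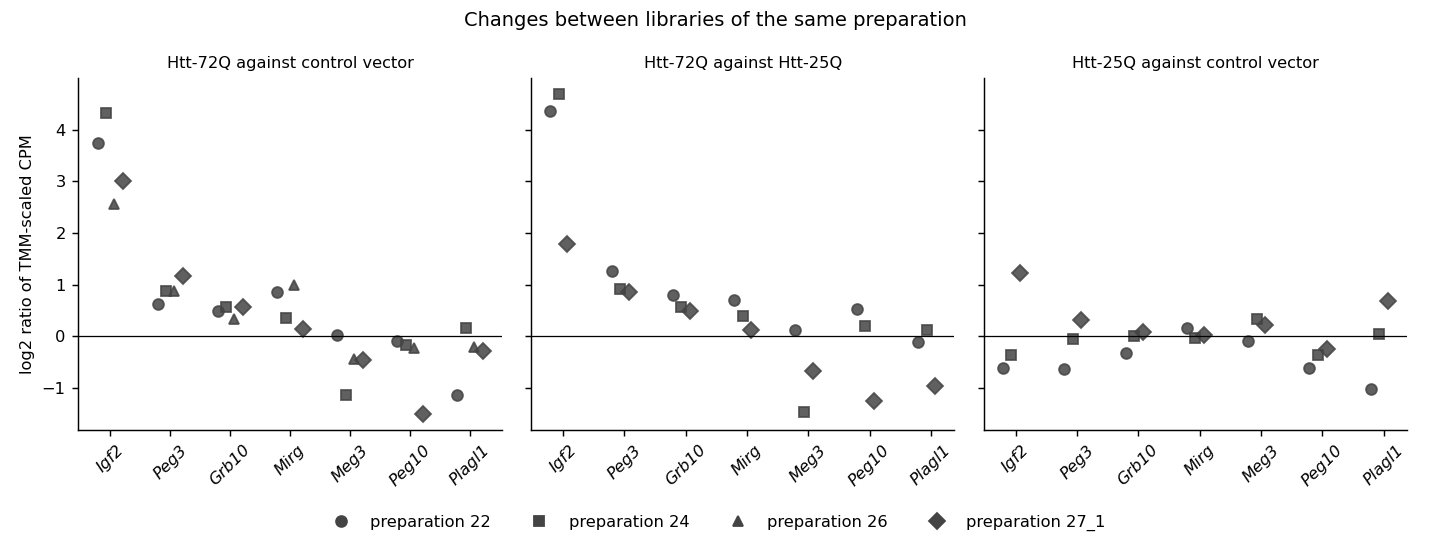
Log2 ratio of TMM-scaled CPM between 2 libraries of the same preparation, for the 7 tested members, in each of the 3 comparisons (linear axis in log2 units, 1 symbol per preparation, line at 0). Igf2, Peg3, Grb10 and Mirg lie above 0 in each preparation in both Htt-72Q comparisons, while Meg3, Peg10 and Plagl1 differ in sign between preparations in at least 1 of them.

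The pairing by preparation bears most on Mirg. Meg3, Rian and Mirg come from the Dlk1-Dio3 region of chromosome 12. They are maternally expressed long RNAs that are thought to be made largely as 1 run of transcription. Rian hosts small nucleolar RNAs and Mirg hosts microRNAs, short RNAs that pair with messenger RNAs through their seed, bases 2 to 8. Mirg lies at chr12:109729764-109749460 on the plus strand. Its level was 33.7, 50.1, 28.9 and 83.8 CPM in control vector, and 37.6, 49.2, 84.7 and 77.8 CPM in Htt-25Q. In Htt-72Q it was 61.3, 64.3, 57.3 and 92.1 CPM. The ranges of all 3 groups overlapped, and the highest library of each group came from preparation 27_1. The means were 49.1 ± 24.8, 62.3 ± 22.5 and 68.8 ± 15.8 CPM (SD, n = 4). Mirg had a log2 fold change of 0.49 ± 0.32 against control vector (edgeR adjusted p = 0.293) and of 0.14 ± 0.32 against Htt-25Q (adjusted p = 0.792). With preparation as a replicate block these were 0.59 ± 0.14 (adjusted p = 0.0084), past the threshold, and 0.48 ± 0.16 (adjusted p = 0.0529). Htt-25Q 4, at 77.8 CPM and alone in preparation 27, adds nothing to the second value under that block. The fit with this block called 4490 of 14707 genes against control vector (1967 higher, 2523 lower), in place of 3411 without it. The first value was 0.87 when control vector 4 was left out (adjusted p = 0.0432). Within preparations Mirg was higher in 4 of 4 against control vector (log2 ratios of 0.14 to 0.99) and in 3 of 3 against Htt-25Q (0.12 to 0.71).

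The Mirg transcript holds 26 mature microRNAs from 14 hairpins in RefSeq (GRCm38.p6), with 25 seeds. A few are printed to show how different its products are and the 1 seed that is shared, that of miR-453 and miR-496a-5p. MiR-134 is known for limiting dendritic spine size. Seeds are in capitals, 5′ to 3′.
miR-382-5p: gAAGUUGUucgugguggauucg
miR-134-5p: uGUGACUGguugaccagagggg
miR-410-3p: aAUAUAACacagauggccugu
miR-453: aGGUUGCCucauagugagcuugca
miR-496a-5p: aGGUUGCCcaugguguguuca
Mature microRNAs were not measured here. The hairpin genes were counted as any other gene, with 75 reads over Mir382, 242 over Mir453, 60 over Mir496a and 0 over Mir134 and Mir410. Mir382, Mir134 and Mir410 overlap Mirg exons, while Mir453 and Mir496a do not. How reads over shared exons were counted is not known here, so a count of 0 does not show absence.

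Meg3, at chr12:109541001-109571726 on the plus strand, is a nuclear RNA known as a growth suppressor. Its level was 18.8, 21.3, 10.1 and 13.02 CPM in control vector, and 17.5, 26.7, 15.2 and 16.5 CPM in Htt-25Q. In Htt-72Q it was 19.05, 9.63, 7.49 and 9.48 CPM. Of these, 3 libraries lay below all 8 others, and Htt-72Q 1 lay among them. The means were 15.8 ± 5.12, 18.99 ± 5.24 and 11.4 ± 5.18 CPM (SD, n = 4). The log2 fold change was -0.47 ± 0.30 against control vector (edgeR adjusted p = 0.290) and -0.73 ± 0.30 against Htt-25Q (adjusted p = 0.0978), neither past the threshold. Without Htt-72Q 1 they were -0.85 (adjusted p = 0.0398) and -1.10 (adjusted p = 0.0131), so that 1 library decided the call. A block by title number gave -0.77 (adjusted p = 0.0220) against Htt-25Q. The block by preparation, under which Htt-25Q 4 adds nothing, gave -0.64 ± 0.23 (adjusted p = 0.0667) there, not past the threshold.

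The fold changes of Meg3 and Mirg had opposite signs, and neither passed in the fit of all libraries without a block. The ratio of Mirg to Meg3 in deposited RPKM was 4.45, 5.83, 7.07 and 15.97 in the control vector group, 5.32, 4.57, 13.8 and 11.7 with Htt-25Q, and 7.99, 16.6, 18.97 and 24.1 with Htt-72Q. The 3 ranges overlapped. Within preparations the ratio was higher in Htt-72Q in 4 of 4 against control vector and in 3 of 3 against Htt-25Q, and no test was made of it.

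Between the 2 genes the counts nearly vanished. Rian, at chr12:109603940-109661716, had 5 reads in 4 of the 12 libraries, on a counted length of 14381 bases. From Dlk1 to Rian, 22 of 24 annotated genes in a row had 0 reads in all libraries, the exceptions being Meg3 and Rian, and from Dlk1 to AF357341 it was 44 of 46. From B830012L14Rik to Mirg 0 of 26 genes were at 0. Across all genes 33.9% had 0 reads. Many genes in the empty stretch are microRNA or other short RNA genes, but it also holds Rtl1, a paternally expressed gene with a counted length of 6357 bases. Why the counts stop and start again there was not tested. Some short RNA genes overlap exons of Meg3 or Rian on the same strand. How reads over such shared exons were counted is not known here.

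Dlk1, at chr12:109452823-109463336 on the plus strand, encodes a membrane protein with EGF-like repeats that holds back differentiation and is the main paternally expressed growth gene of the region. It had 0 reads in 224.5 M, which allows up to 0.0134 CPM over all libraries and 0.109 to 0.241 CPM in single ones, for counting error only and with 3 reads as the limit. Dlk1 is the first gene of the nearly empty stretch, whose cause is not known. These limits therefore hold only if reads of Dlk1 could be counted. On its flanks, Begain had 6311 reads and fell in Htt-72Q against control vector (-0.70 ± 0.18, adjusted p = 0.0125). Dio3, the deiodinase at the other end, had 79 reads. They were named as neighbours of members.

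**Figure D3:**
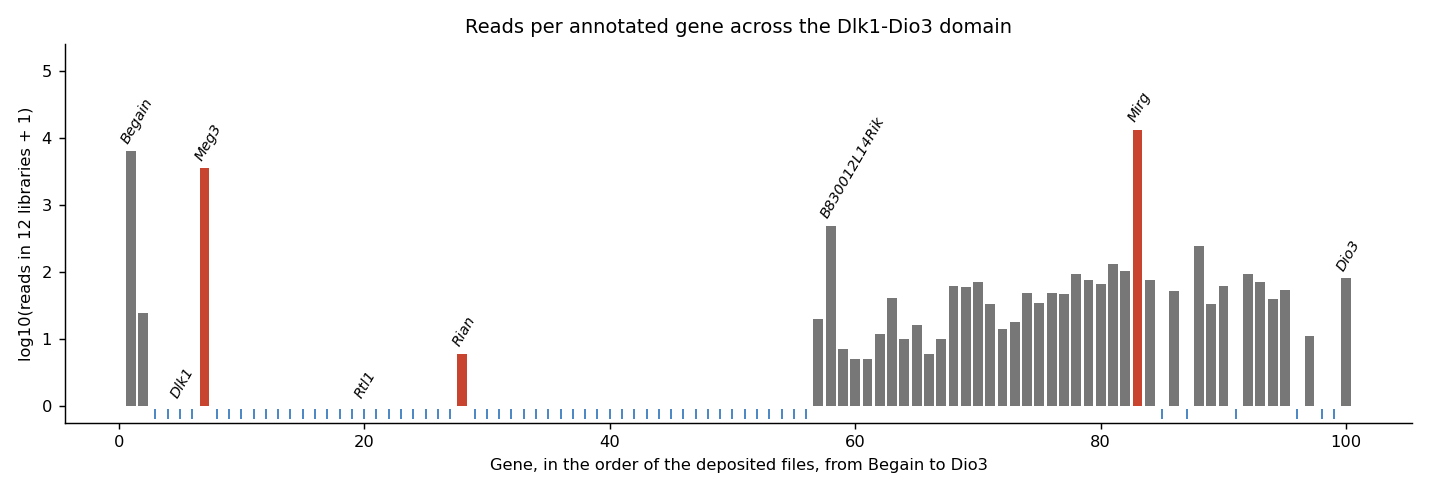
Reads summed over the 12 libraries for each annotated gene from Begain to Dio3 on chromosome 12, in file order, as log10 of reads + 1 (log scale), with members in red and a blue tick for a gene at 0 reads. Meg3 (3541 reads) and Rian (5) are the only bars between Dlk1 and AF357341, and Mirg has the highest bar at 13272 reads.

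The 2 remaining members gave lower means in Htt-72Q that did not pass the test. Peg10, at chr6:4747306-4760517 on the plus strand, is a paternally expressed gene derived from a retrotransposon whose protein can form virus-like particles. Its level was 22.1, 13.5, 10.3 and 29.0 CPM in the control vector group, 14.4, 10.5, 24.5 and 25.3 CPM with Htt-25Q, and 20.7, 12.02, 8.85 and 10.3 CPM with Htt-72Q. The ranges overlapped, and the highest library of Htt-72Q, the first, lay inside both other groups. The log2 fold change was -0.53 ± 0.36 against control vector (edgeR adjusted p = 0.321) and -0.53 ± 0.36 against Htt-25Q (adjusted p = 0.329). Within preparations it was lower in 4 of 4 against control vector (log2 ratios of -1.50 to -0.096) but in 1 of 3 against Htt-25Q. Sgce, which shares its promoter region, had 0.35 ± 0.15 (adjusted p = 0.1001) against control vector and is named as a neighbour.

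Plagl1, at chr10:13090691-13131694 on the plus strand, encodes a paternally expressed zinc finger transcription factor that acts on other imprinted genes, Igf2 and H19 among them. Its level was 39.5, 15.7, 15.4 and 20.5 CPM in the control vector group, 19.5, 16.2, 32.96 and 34.8 CPM with Htt-25Q, and 17.99, 17.5, 13.4 and 16.8 CPM with Htt-72Q. The Htt-72Q libraries lay close together (16.4 ± 2.09 CPM, SD, n = 4), while the other groups spread over a wider range (22.8 ± 11.4 and 25.9 ± 9.38 CPM). The log2 fold change was -0.47 ± 0.31 against control vector (edgeR adjusted p = 0.293) and -0.65 ± 0.31 against Htt-25Q (adjusted p = 0.148), and the second passed without control vector 1 (-0.65, adjusted p = 0.0487).

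Other imprinted genes were read from a list of 65, of which 60 were in the files and 47 were tested. In Htt-72Q against control vector 7 were higher, 6 were lower and 34 did not pass, beside 23.2% called among all genes tested (9.44% higher, 13.7% lower). The median log2 fold change was 0.095 over the list and 0.030 over all genes tested. The 4 with the smallest p were Slc22a3, an organic cation transporter (-2.08 ± 0.22), Inpp5f, a phosphoinositide phosphatase (1.33 ± 0.17), Sfmbt2, a Polycomb group protein (1.30 ± 0.17), and Htr2a, a serotonin receptor (-1.89 ± 0.25), each with an edgeR adjusted p of 1.2e-05 to 7.8e-05. Inpp5f went from 220 ± 42.6 to 555 ± 119 CPM and Slc22a3 from 12.9 ± 2.11 to 3.06 ± 0.0527 CPM (SD, n = 4). Against Htt-25Q 6 were higher and 6 lower, beside 9.07% higher and 13.4% lower among all genes tested, with a median of -0.0097. The median over all genes tested was 0.034 in that comparison.

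**Figure D4:**
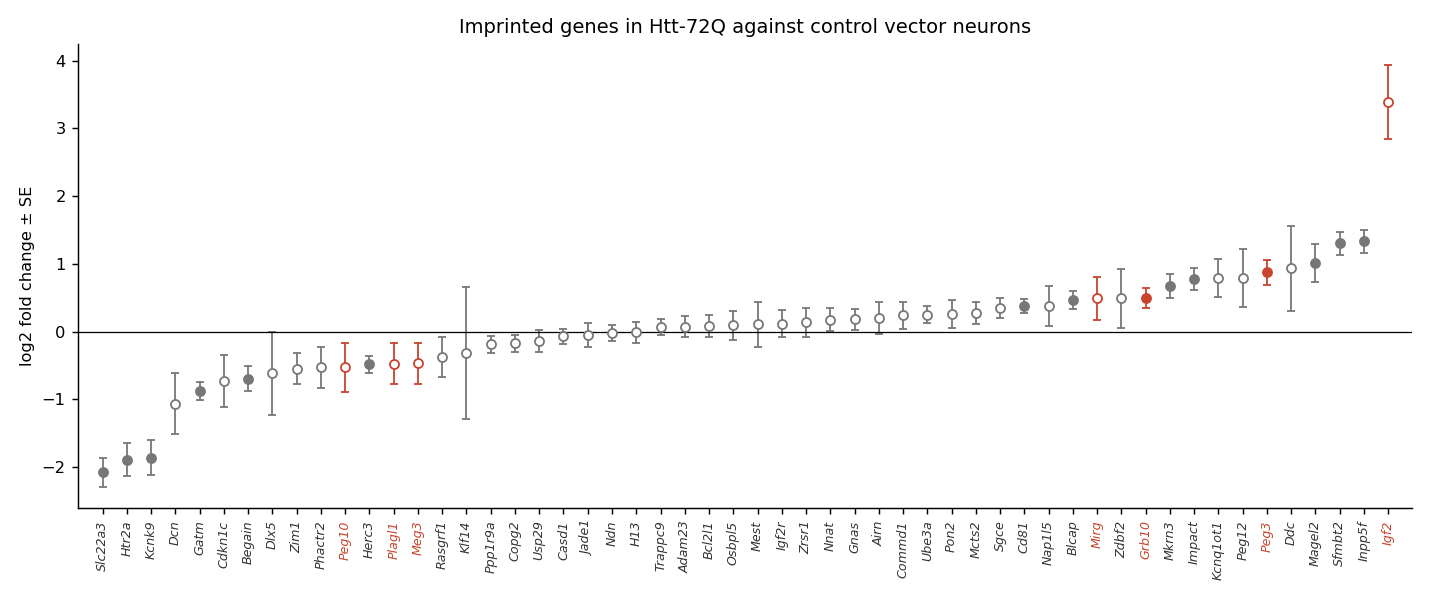
Log2 fold change ± SE of Htt-72Q against control vector for 47 other imprinted genes (grey) and the 7 tested members (red), in order of value (log2 axis, line at 0). Filled points are called at an adjusted p under 0.05, and Igf2 is drawn open since it carries no test. The values run from -2.08 (Slc22a3) to 3.39 (Igf2).

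Of 32 genes of the IGF axis, the pathway through which Igf2 acts, 24 were tested. In Htt-72Q against control vector 2 were higher, 6 were lower and 16 did not pass, with a median log2 fold change of -0.11, beside 9.44% higher and 13.7% lower among all genes tested. The higher ones were Irs4, a receptor substrate, and Igf2bp1, an RNA-binding protein that binds Igf2 messenger RNA. Both reached the filter level in 4 Htt-72Q libraries and in 0 of the others, so they entered the test through Htt-72Q alone. They are given as levels, without a p, and their count is not read against the 9.44%. Irs4 had 0.0512 ± 0.0417 CPM in the control vector group, 0.153 ± 0.147 with Htt-25Q, and 4.96 ± 0.854 with Htt-72Q (SD, n = 4). Igf2bp1 had 0.306 ± 0.162, 0.288 ± 0.117 and 2.14 ± 0.636 CPM. Among the lower ones were the kinase Akt1 (-0.50 ± 0.11, adjusted p = 0.0054) and the regulatory subunit Pik3r1 (-0.66 ± 0.16, adjusted p = 0.0069). The receptor Igf1r, named outside the rule since Igf2 and Grb10 act on it, fell by 0.98 on the log2 scale (SE 0.28, adjusted p = 0.0184). Igf2r, the imprinted receptor that clears Igf2, had 0.12 ± 0.19 (adjusted p = 0.705). Against Htt-25Q the counts were again 2 higher, the same Irs4 and Igf2bp1, and 6 lower, beside 13.4% lower among all genes tested. Htt-25Q against control vector had none called.

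Of 28 genes that set, keep or read imprints, 25 were tested. In Htt-72Q against control vector 0 were called higher and 4 lower, beside 9.44% higher and 13.7% lower among all genes tested. The median log2 fold change over the list was 0.077. Zfp57, which keeps methylation at imprinted control regions, fell by 1.18 on the log2 scale (SE 0.22, edgeR adjusted p = 0.0017), from 38.9 ± 10.5 to 17.3 ± 2.43 CPM (SD, n = 4). Kdm1b, a histone demethylase needed to set maternal imprints in oocytes, had -0.48 ± 0.12 (adjusted p = 0.0080). The maintenance methyltransferase Dnmt1 had -0.51 ± 0.15 (adjusted p = 0.0243) and the chromatin remodeller Atrx had -0.39 ± 0.12 (adjusted p = 0.0337). Against Htt-25Q 3 were lower, beside 13.4% lower among all genes tested, and Dnmt1 was not called (-0.43 ± 0.15, adjusted p = 0.0558). The insulator protein Ctcf, which acts at the Igf2 and H19 control region, had -0.13 ± 0.17 (adjusted p = 0.610) and is named for that role.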

How the data were processed

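Gene counts of 12 RNA libraries were used, in the groups that the titles and infection labels give. Per the submitters' processing notes, GRCm38, STAR 2.0.4b, featureCounts 1.45 and Subread were used, in roles that are not stated. The labels give no strand or multi-mapping setting. Per the labels, the reads of each library came from 2 lanes merged before counting. The deposited files hold counts, and beside them the authors' CPM and RPKM, which follow from the counts, the library total and the gene length. Positions come from GENCODE M21 on GRCm38.

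The counts were fitted with edgeR 4.0.16 (R 4.3.3): TMM, filterByExpr with a minimum count of 10, 1 quasi-likelihood fit of 3 groups, 9 residual degrees of freedom, two-sided tests, Benjamini-Hochberg adjustment over 14707 genes, called under 0.05. The SE is the log2 fold change over the square root of F. The scripts were tested on simulated data. No 2 libraries were duplicates (smallest chi-square per degree of freedom 9.00). Depth of 12.4 M to 27.5 M counts limits genes with few reads, and floors cover counting error only.

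The members, the lists (other imprinted genes, IGF axis genes, imprint control genes, cell markers) and the comparisons were chosen with earlier results of these data known. Named genes are the members, at most 4 called genes per list by p, the 5 genes most like Igf2, Dlk1 and Meg3 by correlation (log2 of CPM + 0.5; Dlk1 had no counts), and defining cell markers. Libraries of the same preparation had residuals that correlated in 10 of 10 pairs above 0.1 (0.113 to 0.501), so preparation pairs them. Pairs by title number did so in 10 of 12. Htt-25Q 4 is alone in preparation 27, so with the block by preparation it adds nothing to the fold changes. Alternatives were DESeq2 1.42.0, limma 3.58.1 voom, other scalings, filters and thresholds, blocks, fits of 2 groups, each library left out and, added after seeing the data, a term for the Gapdh classes. Marker sums for oligodendrocyte lineage genes were 540 to 713, 505 to 628 and 519 to 634 CPM, and for microglia 3.48 to 13.3, 7.49 to 12.3 and 7.22 to 25.2 CPM, in control vector, Htt-25Q and Htt-72Q. Promoter and microRNA sequences are from RefSeq on GRCm38.p6, with a window for 8 of 10 members.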

Additional observations from a re-analysis of the deposited data

Results flagged for a closer look

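Rian was flagged in 2 of 27 groups of 4 libraries checked, since 1 library lay far from the other 3. In Htt-25Q the value was 0.0374 CPM in Htt-25Q 3, and in Htt-72Q it was 0.0683 CPM in Htt-72Q 2, with 0 in the others of each group. Each value is 1 read. A group with reads in 1 library and 0 in the others is always flagged. The chance rate of about 1 in 20 groups therefore does not apply to these 2.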

How the results depend on the processing

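Of 482 values under alternative settings, 433 kept their direction and their side of the threshold. These include values of Igf2, which is given no test. In Htt-25Q against control vector each setting called 0 genes, so a member could not change its side of the threshold there. Peg3 was called higher in both Htt-72Q comparisons under each setting, and Grb10 lost its call where named above and at an adjusted p under 0.01. At an adjusted p under 0.01, 1885 genes were called in Htt-72Q against control vector and 1763 against Htt-25Q, in place of 3411 and 3308. Leaving out 1 library gave 2671 to 3265 and 2293 to 3902. Scaling moved the split of higher and lower calls from 1389 and 2022 to 1931 and 1702 with library totals only and to 1735 and 1778 with upper-quartile scaling. Against Htt-25Q it moved from 1334 and 1974 to 1745 and 1690 and to 1573 and 1790. Library totals also shifted the median log2 fold change of all genes to 0.11 and 0.10. With the replicate block by preparation, Mirg passed against control vector (0.59) and no other call of a member changed. Among all genes tested, that block raised the number called against control vector from 3411 to 4490. With the block by title number only Meg3 changed, against Htt-25Q (-0.77).

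Values near 0 changed sign. Mirg in Htt-72Q against Htt-25Q was -0.19 with the term for the Gapdh classes and -0.039 to 0.33 with 1 library left out. In Htt-25Q against control vector, Peg3 was -0.13, Plagl1 -0.080 and Grb10 -0.10 with the block by preparation, and Grb10 was -0.0028 in a fit of only these 2 groups. Peg10 there was 0.035 with limma voom, 0.012 with upper-quartile scaling, 0.0011 with library totals, 0.056 with the block by title number and 0.11 with the Gapdh term. With 1 library left out, the same comparison gave -0.032 to 0.98 for Igf2, -0.10 to 0.22 for Peg3, -0.22 to 0.28 for Peg10, -0.0083 to 0.59 for Plagl1 and -0.074 to 0.11 for Grb10. The cause was not tested. Igf2, H19 and Rian rest on few reads, which limits their values.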
